A study of Rattus norvegicus with 4 samples.

Results

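The miRNA genes between Dlk1 and Dio3, an imprinted region of rat chromosome 6, were followed in exosomes, vesicles that cells shed into their surroundings. The members are 47 named precursor hairpins, chosen by name and not by their values. Counts were found for 24 of them, of 262 named hairpins with counts in the series. The files came from 2 groups of rat material, with 2 libraries each. The first group, Exo-AT, held exosomes from minced adipose tissue of SD rats (the strain as labelled) aged 4 weeks, whose explants were stirred in medium with antibiotics (75 mL, 100 rpm) for 3 days. The second, Exo-ADSCs, held exosomes from adipose stem cells at passage 3, which spent 3 days in serum-free medium of the same kind. Explants hold the mixed cells of adipose tissue and the other group cultured stem cells, so cell makeup and culture differ together. No genotype, drug or knockout is part of the design. The labels tie no library to an animal or culture of its own, and p-values therefore cover only the spread among these libraries, possibly a technical one.

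In this region the maternal chromosome expresses long noncoding transcripts (Meg3, the antisense transcript of Rtl1, Rian and Mirg) from which the miRNAs are cut, while the paternal chromosome expresses the protein-coding genes Dlk1, Rtl1 and Dio3. Dlk1 encodes Pref-1, a membrane protein of preadipocytes that restrains fat cell formation. Drosha and Dicer cut each hairpin into a 5p and a 3p product of which one usually prevails, and the bases that follow the first base of the product, its seed, lead target choice. The miRNAs are best known from brain, muscle, embryo and placenta. The members fall on a Meg3 and anti-Rtl1 side, which includes miR-127, miR-136, miR-341 and miR-434, and on a miR-379 to miR-410 side, a dense array of related hairpins. RefSeq places 41 of the 47 hairpins on chromosome 6 of assembly GRCr8, whereas the submitters' processing notes name rn6, so no coordinates are given.

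The mature forms that carry the comparison are printed here as RefSeq lists them for GRCr8, 5′ to 3′, with the seed (bases 2 to 8) in capitals. The first 4 were the most abundant in Exo-AT, and the next 2 had counts in both Exo-AT libraries and 0 in Exo-ADSCs.
miR-127-3p: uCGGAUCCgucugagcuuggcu
miR-434-3p: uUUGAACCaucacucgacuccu
miR-379-5p: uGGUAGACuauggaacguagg
miR-341: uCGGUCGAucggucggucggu
miR-382-5p: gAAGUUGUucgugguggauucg
miR-411-5p: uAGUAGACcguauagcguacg
RefSeq listed 84 mature forms for 46 of the members, with 78 distinct seeds. Only 5 seeds were shared, by 11 forms in all. None of the 6 forms above shared its seed with another listed form of the cluster. Of the shared seeds, 2 had counts at a mature start, both in Exo-AT replicate 2 alone: AUGUGGG of miR-299a-3p and miR-299b-3p with 26 counts and AUACAAG of miR-381-3p and miR-539-3p with 8, all of them from miR-381-3p.

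Counts per read sequence (tag) were used for 3 of the 4 libraries, Exo-ADSCs replicate 2 and both Exo-AT libraries, with 97204, 9134 and 136024 counts on named hairpins. For Exo-ADSCs replicate 1 the authors' deposited table was the sole source, which leaves Exo-ADSCs without an SD. The limit behind a 0, set at 3 counts, was 30.9, 328 and 22.1 CPM (counts scaled to 1000000 named counts per library) in these libraries, and Exo-AT replicate 1 was thus the shallowest by far. Both Exo-AT files carry the same sample name inside. Their counts differed beyond sampling noise over 183 forms (chi-square 1723, 182 degrees of freedom; this covers counting error only), so they were kept as 2 libraries. Over the 18 cluster forms with at least 10 summed counts, no difference beyond counting error was detected (chi-square 22.1, 17 degrees of freedom). All 20 cluster tags of Exo-AT replicate 1 were also among the 79 of Exo-AT replicate 2. Over all tags, 856 of the 989 of Exo-AT replicate 1 were also in replicate 2. For Exo-ADSCs replicate 2, 6 of its 23 cluster tags were found in an Exo-AT library. Named miRNAs held 13.6% of all counts assigned to hairpins in Exo-ADSCs replicate 2 and 60.1% and 75.1% in the Exo-AT libraries, the rest being hairpins that the authors predicted.

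The cluster made up about 1% of named miRNA counts in tissue vesicles and about 0.1% in stem cell vesicles. Its 92 counts in Exo-AT replicate 1 were a share of 1.01% (Wilson 95% interval 0.822 to 1.23), and its 1237 counts in Exo-AT replicate 2 one of 0.909% (0.860 to 0.961). In Exo-ADSCs replicate 2 it held 105 counts, a share of 0.108% (0.0892 to 0.131). The intervals of the Exo-AT libraries overlap each other and lie above that of Exo-ADSCs; they cover counting error only, and with 1 Exo-ADSCs library no test over samples was made. Both sides of the cluster showed this order. The Meg3 and anti-Rtl1 side stood at 5693 and 4999 CPM in Exo-AT against 597 CPM, and the miR-379 to miR-410 side at 4379 and 4095 CPM against 484 CPM.

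**Figure D1:**
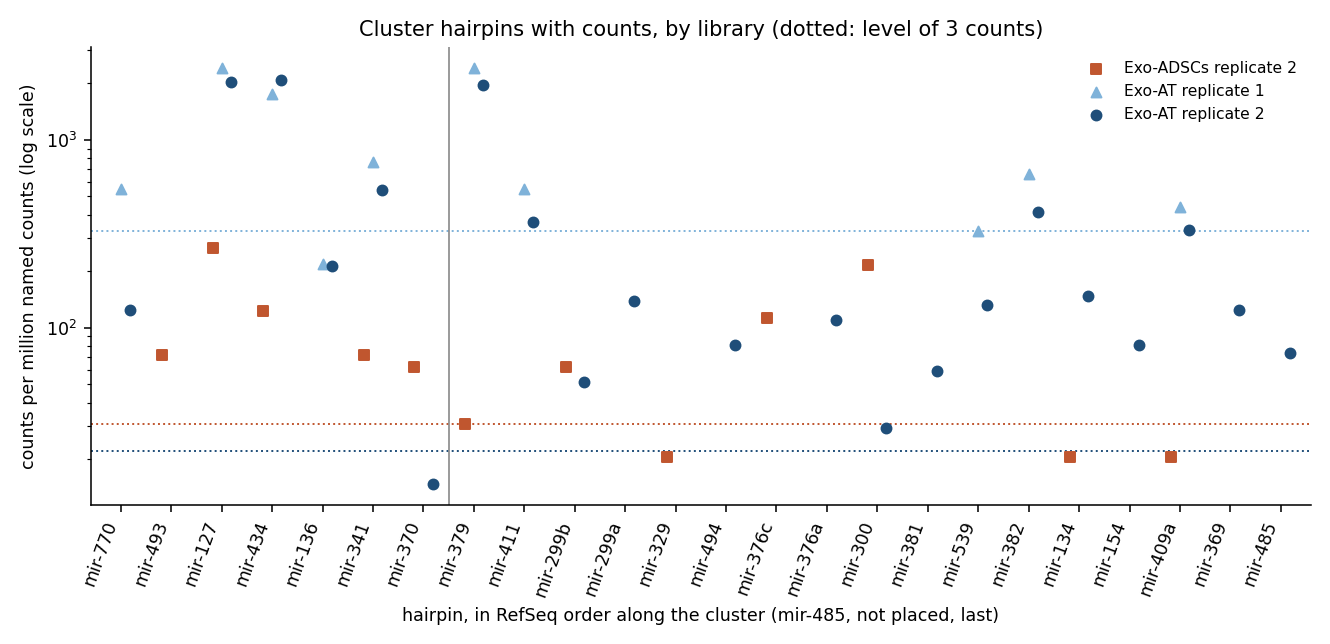
CPM of the named total (log axis) of the 24 cluster hairpins with counts, in RefSeq order along the chromosome (mir-485, not placed, last), for 3 libraries; hairpins at 0 have no point, dotted lines mark 3 counts in each library, and the grey line parts the Meg3 and anti-Rtl1 side (left) from the miR-379 to miR-410 side. mir-127, mir-434, mir-341 and mir-379 lie highest in both Exo-AT libraries, between 544.02 and 2409 CPM.

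Few hairpins carried the signal. rno-mir-127, rno-mir-434, rno-mir-379 and rno-mir-341, written below without the species prefix, held 72.8% and 72.6% of cluster counts in Exo-AT replicates 1 and 2. In Exo-ADSCs replicate 2 the leading 4 were mir-127, mir-300, mir-434 and mir-376c, with 66.7%. Counts were found for 10 and 21 hairpins in the Exo-AT libraries and for 12 in Exo-ADSCs replicate 2. At an equal depth of 9134 counts the expected numbers were 10, 14.8 and 5.84. All 10 hairpins of Exo-AT replicate 1 recurred in Exo-AT replicate 2: mir-127, mir-434, mir-341, mir-379 and mir-409a, which also had counts in Exo-ADSCs, and mir-770, mir-136, mir-411, mir-539 and mir-382, which had 0 there. A further 7 had counts in Exo-AT replicate 2 alone, namely mir-299a, mir-494, mir-376a, mir-381, mir-154, mir-369 and mir-485, at 8 to 19 counts each. In Exo-ADSCs alone, counts were found for mir-376c, mir-493 and mir-329 (11, 7 and 2 counts). The remaining 4, mir-300, mir-370, mir-299b and mir-134, had counts in Exo-ADSCs replicate 2 and Exo-AT replicate 2. No count was found in any library for 23 members: mir-337, mir-431, mir-433, mir-540, mir-665 and mir-673 of the first side, and mir-323, mir-376b, mir-377, mir-380, mir-409b, mir-410, mir-412, mir-487b, mir-495, mir-496, mir-541, mir-543, mir-544, mir-667, mir-668, mir-679 and mir-758 of the second.

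Reads of the cluster mostly began near annotated mature starts in tissue vesicles, and less often did so in stem cell vesicles. In Exo-ADSCs replicate 2, 53 of 105 counts overlapped a mature form by at least 10 nt, whatever their start. Tags that started within 2 nt of a RefSeq mature start held 93.5% of cluster counts in Exo-AT replicate 1 (86 of 92, interval 86.5 to 97.0) and 95.6% in replicate 2 (1183 of 1237, 94.3 to 96.6). In Exo-ADSCs replicate 2 they held 41.9% (44 of 105, 32.9 to 51.5). For named miRNAs outside the cluster whose hairpin has a RefSeq mature form, the shares were 91.3%, 91.7% and 89.4% in the same order. In Exo-ADSCs replicate 2 the cluster's share thus lay below the share pooled over other named hairpins of that library, and 1 library gives no replicate check. Pooled shares, here and in the next sentences, are weighted by counts. mir-143 had 15143 counts in that library, whereas mir-127, the most abundant cluster hairpin there, had 26. Hairpins of like abundance were not compared, so whether reads away from mature starts are particular to the cluster was not tested. Of the 105 counts, 34 (32.4%) came from tags that ran past the end of the hairpin away from a mature start, against 0.580% of counts outside the cluster in that library and 0 cluster counts of this kind in either Exo-AT library. In Exo-AT replicate 2 a tag of miR-381-3p with 8 counts also ran 2 bases past its hairpin, but it began at the mature start and is counted there.

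**Figure D2:**
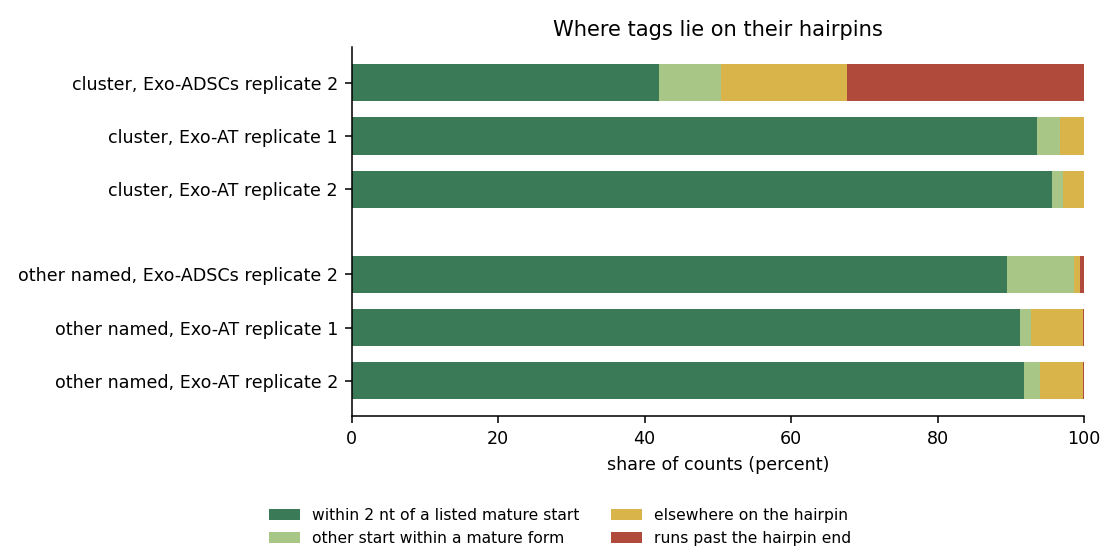
Share of counts (percent) by where the tag lies on its hairpin, for the cluster (upper 3 bars) and for all other named hairpins with a RefSeq mature form (lower 3 bars) in each library. Tags at a mature start hold 41.9% of cluster counts in Exo-ADSCs replicate 2 and 93.5% and 95.6% in the Exo-AT libraries.

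The tags of Exo-ADSCs that ran past a hairpin end are printed because they make up the whole signal of several members in Exo-ADSCs. Capitals mark the 5 bases that lie outside the hairpin, so that 10 to 12 bases of each tag match it.
mir-376c, 3′ end: tcagtgtcaaTGGAG
mir-376c, 5′ end: CTATCttggtattta
mir-434, 5′ end: AATTTgtttgaacca
mir-299b, 5′ end: ATTGGcggactggat
mir-370, 3′ end: gtttgtctgtctGCTCT
mir-127, 5′ end: CAGGCtttgatcact
They had 7, 4, 6, 6, 6 and 5 counts in the order printed. All counts of mir-376c, mir-299b and mir-370 in Exo-ADSCs replicate 2 were of this kind. None of these 3 members thus had a read at a mature start there. In the deeper tissue library, Exo-AT replicate 2, the 7 counts of mir-299b and the 2 of mir-370 were at mature starts.

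Cluster reads were also shorter in Exo-ADSCs. Cluster lengths peaked at 22 nt in each Exo-AT library and at 15 nt, the shortest in the files, in the Exo-ADSCs library. Tags of 21 to 23 nt held 73.9% and 71.2% of cluster counts in Exo-AT against 17.1% in Exo-ADSCs. Tags of up to 18 nt held 10.9% and 16.3% against 69.5%. Outside the cluster, tags of up to 18 nt held 14.8%, 11.3% and 46.4%, so short reads were common in that library as a whole. Among cluster tags at mature starts the mean length was 20.95 and 20.6 nt in Exo-AT and 18.7 nt in Exo-ADSCs. How read length bears on the difference in level was not tested beyond the alternatives given at the end.

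**Figure D3:**
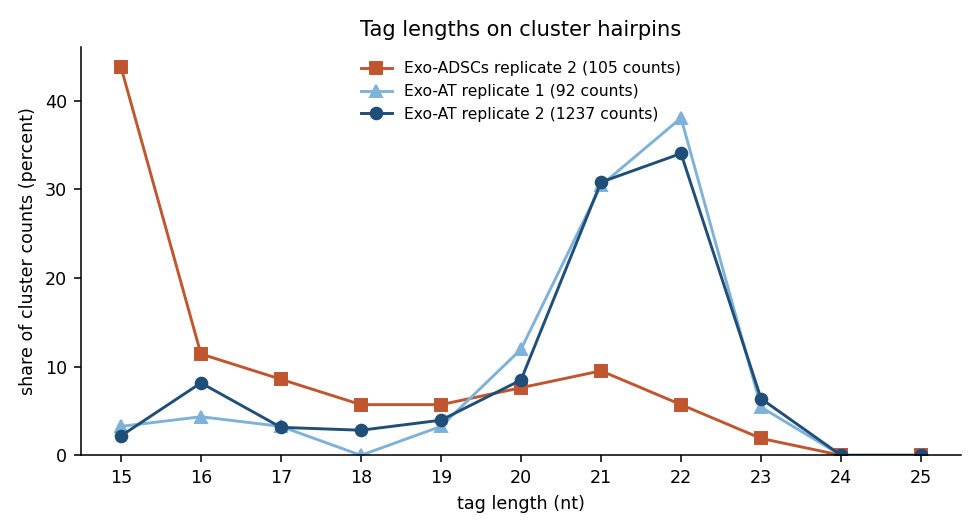
Share of cluster counts (percent) at each tag length in nt, 1 line per library. Both Exo-AT libraries peak at 22 nt, and Exo-ADSCs replicate 2 peaks at 15 nt with 43.8% of its 105 counts.

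The main comparison asked which forms differ between vesicles of the tissue and of its stem cells. It was fitted with edgeR over all named mature forms, in which 33 cluster forms had counts and 15 passed the filter on low counts. Of these 15, 7 had 0 counts in Exo-ADSCs. Only miR-127-3p and miR-300-5p, with 21 and 18 counts, reached the filter's minimum of 10 counts in Exo-ADSCs, the library of median depth. All other tested cluster forms could pass only through Exo-AT, so the tested set was selected toward forms high in Exo-AT. Of the 15, 5 rose in Exo-AT (miR-379-5p, miR-434-3p, miR-127-3p, miR-382-5p and miR-411-5p), 1 fell (miR-300-5p) and 9 were not called. Of all 183 forms tested, 35 rose and 35 fell, which is 19.1% in each direction. Both Exo-AT libraries lay above Exo-ADSCs for 10 of the 15 and below it for 1, against 39.3% and 37.7% of all tested forms. The median log2 fold change of the 15 was 5.16 and that of all 183 was 0.37. With cluster forms at 0 counts set to their bound, the median of the 15 was 2.05. No bound was set for the other forms, so 2.05 has no like value over all 183. The median of all moved to 0.08 with DESeq2 size factors and to 1.21 with total-count scaling, which called 46 higher and 19 lower over all forms and 6 and 0 in the cluster. Under total-count scaling miR-341-3p was called as well, and with DESeq2 size factors miR-411-5p and miR-300-5p were not. miR-379-5p, miR-434-3p, miR-382-5p and miR-127-3p rose under all 3 scalings.

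miR-379-5p, the first miRNA of the miR-379 to miR-410 array, had the clearest difference. It had 21 and 261 counts in Exo-AT replicates 1 and 2 (2299 and 1919 CPM) and 3 counts in Exo-ADSCs replicate 2 (30.9 CPM). The Exo-AT values were close to each other and far above Exo-ADSCs. The TMM-scaled level was 1718 ± 81.6 CPM (SD, n = 2 Exo-AT libraries) against 46.8 CPM, and the pooled ratio was 37.8 with a counting interval of 12.8 to 184. Its log2 fold change was 5.16 (SE 0.86, adjusted p = 1.2e-07 by edgeR's quasi-likelihood test), or 4.78 above the median of all forms. That p-value rests on spread pooled over all forms, and it was far larger with DESeq2 size factors. The 3 counts of miR-379-5p in Exo-ADSCs were 1 tag of 16 nt. All of its counts in every library were within 2 nt of the mature start.

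miR-434-3p and miR-127-3p come from the anti-Rtl1 transcript, and both lie opposite the Rtl1 coding sequence. miR-434-3p had 16 and 282 counts in Exo-AT (1752 and 2073 CPM) and 6 in Exo-ADSCs (61.7 CPM). Its log2 fold change was 4.11 (SE 0.79, adjusted p = 3.9e-06, edgeR). Each of its tags was divided between 2 genomic copies of the hairpin, which were summed. miR-127-3p had 22 and 258 counts in Exo-AT (2409 and 1897 CPM) and 21 in Exo-ADSCs (216 CPM). It was the most abundant cluster form of Exo-ADSCs, all of its counts there were at the mature start, and its log2 fold change was smaller, at 2.41 (SE 0.65, adjusted p = 0.0012, edgeR). It did not pass when only tags of 20 to 25 nt were counted (1.62, adjusted p = 0.14, edgeR) or with DESeq2 (2.15, adjusted p = 0.056). Neither form overlapped between the groups, and both Exo-AT libraries lay above Exo-ADSCs in 39.3% of all 183 tested forms.

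miR-382-5p and miR-411-5p lie in the miR-379 to miR-410 array. miR-382-5p had 6 and 56 counts in Exo-AT (657 and 411.7 CPM) and 0 in Exo-ADSCs. With Exo-ADSCs set to 3 counts it was 8.31-fold higher (adjusted p = 0.0047, edgeR). miR-411-5p had 4 and 45 counts in Exo-AT (438 and 331 CPM) and 0 in Exo-ADSCs. On the same floor it was 6.56-fold higher (adjusted p = 0.022, edgeR). Its call was lost with DESeq2 size factors, without the filter on low counts, and with DESeq2 and limma (adjusted p from 0.054 to 0.081).

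**Figure D4:**
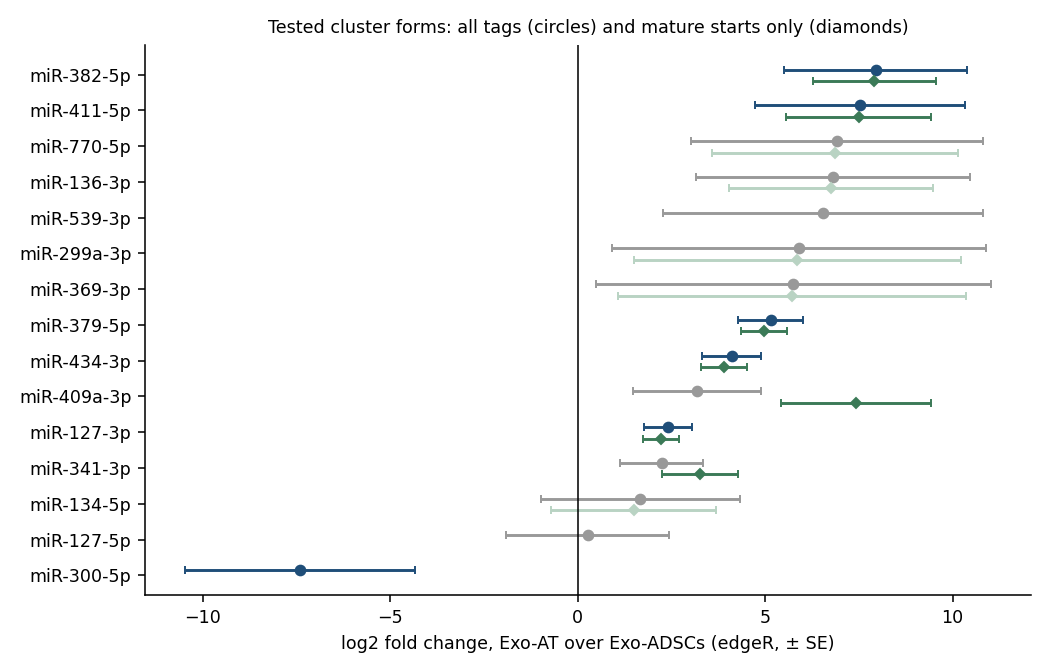
Log2 fold change of Exo-AT over Exo-ADSCs with its SE (edgeR) for the 15 tested cluster forms; circles use all tags (dark blue called, grey not called) and diamonds only tags at mature starts (dark green called, pale not called). Values of forms with 0 counts in a group depend on the prior count and are no measure of size. With mature starts only, 7 forms were called, all higher in Exo-AT, among them miR-409a-3p, whose Exo-ADSCs counts that rule set aside.

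Of the 9 forms not called, miR-341-3p had the most counts. It had 7 and 74 counts in Exo-AT (766 and 544.02 CPM) and 7 in Exo-ADSCs (72.0 CPM), with a log2 fold change of 2.24 (SE 1.11, adjusted p = 0.099, edgeR); it was called with total-count scaling. miR-409a-3p had 4 and 42 counts in the tissue libraries against 2 in Exo-ADSCs, with a log2 fold change of 3.18 (SE 1.71, adjusted p = 0.14, edgeR). miR-770-5p, hosted by Meg3, had 5 and 17 counts and miR-136-3p 2 and 29, with 0 in Exo-ADSCs for both (adjusted p = 0.16 and 0.14, edgeR). All counts of miR-770-5p were 1 tag of 20 nt. It began 1 nt before the mature start and had a first base of G in place of C. The groups did not overlap for these 4 forms, and both Exo-AT libraries lay above Exo-ADSCs in 39.3% of all 183 tested forms. miR-134-5p, known from dendrites of neurons, had 0 and 20 counts in the tissue libraries against 2 in Exo-ADSCs. miR-127-5p had 0 and 18 against 5, and miR-299a-3p and miR-369-3p had 19 and 17 in Exo-AT replicate 2 with 0 in the other libraries. The limit behind a 0 in the shallow Exo-AT replicate 1 is a higher CPM than these 4 forms had in Exo-AT replicate 2, so their absence there was not detectable at this depth. Below the filter, miR-376a-3p, miR-154-5p, miR-494-3p and miR-485-5p had 13, 11, 11 and 10 counts in Exo-AT replicate 2 and 0 elsewhere.

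miR-300-5p, the 1 form called lower in Exo-AT, had 18 counts in Exo-ADSCs and 0 in both Exo-AT libraries (adjusted p = 0.044, edgeR). With Exo-AT set to 3 counts it was 14.9-fold lower. It passed the filter on low counts only through the 1 Exo-ADSCs library in which it was high. Its counts came from a pair of nested tags of 9 counts each, which are printed beside the listed mature form. Capitals in the tags mark the base that differs from the hairpin.
miR-300-5p, RefSeq: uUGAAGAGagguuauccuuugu
longer tag: cctttgtTtgtttgct
shorter tag: ctttgtTtgtttgct
The changes were G8T and G7T (the hairpin's base, the position from the tag's 5′ end, the tag's base). The tags began 15 and 16 nt after the mature start, and no count of the form lay at that start. It was called in 2 of 8 alternatives that tested it. The opposite arm, miR-300-3p, had 3, 0 and 4 counts at its mature start in Exo-ADSCs replicate 2 and Exo-AT replicates 1 and 2. miR-539-3p was likewise off its mature start: its 3 and 18 counts in Exo-AT were 1 tag of 15 nt that began 9 nt before it and carried A13G (adjusted p = 0.23, edgeR).

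With tags at annotated mature starts only, a rule chosen after seeing the data, 12 cluster forms were tested, 7 rose and 0 fell. The rule kept 44 of 105 cluster counts in Exo-ADSCs and 86 of 92 and 1183 of 1237 in Exo-AT, so it removed a larger share from Exo-ADSCs. Of the 140 forms of the whole table under this rule, 30 rose (21.4%) and 26 fell (18.6%). miR-341-3p was called at a log2 fold change of 3.27 (SE 1.01, adjusted p = 0.047, edgeR), and miR-127-3p stood at 2.23 (SE 0.47, adjusted p = 0.013, edgeR). miR-409a-3p is among the 7, but its call follows from the rule: its 2 counts in Exo-ADSCs began 3 nt before the mature start, just outside the window, and were set aside, while its Exo-AT reads began 1 or 2 nt before it and stayed. The cluster share was 1.11% and 1.16% in Exo-AT and 0.0527% in Exo-ADSCs.

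Several forms were read from more than 1 start, which moves the seed. miR-411-5p is shown because most of its reads began 1 nt before the RefSeq start, and seeds are again in capitals.
miR-411-5p, 1 nt earlier: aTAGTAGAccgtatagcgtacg
miR-411-5p, listed start: tAGTAGACcgtatagcgtacg
The earlier start held 4 of 4 and 27 of 45 counts in Exo-AT replicates 1 and 2 (the latter 60.0%, interval 45.5 to 73.0). Reads of miR-409a-3p began 2 or 1 nt before the RefSeq start, with 20 and 22 of 42 counts in Exo-AT replicate 2, and none began at it. miR-136-3p had 15, 8 and 6 of 29 counts at 0, 1 and 2 nt after its start in that library. miR-341, a hairpin with a repeated motif, had 49 of 74 counts at its start and 18 at 4 nt after it in Exo-AT replicate 2, and 2 and 5 of 7 in Exo-ADSCs.
miR-341, 4 nt later: tCGATCGGtcggtcggtcagt
miR-341, listed start: tCGGTCGAtcggtcggtcggt
The dominant forms were steadier. miR-379-5p started at the listed base in 21 of 21 and 242 of 261 counts in Exo-AT, miR-434-3p in 16 of 16 and 250 of 282, and miR-127-3p in 19 of 22 and 233 of 258, against 15 of 21 in Exo-ADSCs. Over cluster reads that overlap a mature form by at least 10 nt, the listed seed was read in 73.0% and 78.6% of counts in Exo-AT and in 71.7% (38 of 53, interval 58.4 to 82.0) in Exo-ADSCs, whose interval holds both Exo-AT values.

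One arm prevailed in each hairpin with at least 20 counts in an Exo-AT library. In Exo-AT replicate 2 the 5p arm held 100% of counts of mir-382 and mir-134, 98.1% of mir-379 and 90.0% of mir-411, and it held 0 of 282 counts of mir-434, 6.52% of mir-127 and 6.67% of mir-409a. In Exo-AT replicate 1 the 5p arm held 95.5% of mir-379 and 0 of 22 counts of mir-127. In Exo-ADSCs mir-127 had 19.2% on the 5p arm, all of it the tag that ran past the hairpin end. The 3p counts of mir-379 and mir-411 in Exo-AT, 1 and 5 for each, are a single tag divided equally between them. It carried T10C against mir-379 and C22T against mir-411. The tag held all 20 listed bases of miR-411-3p from the listed start, and its change lay past them. Against miR-379-3p it began 1 nt after the listed start, and its change lay inside. It thus lay closer to miR-411-3p. The arm shares of both hairpins rest on the equal division, and no other division was tested.

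Substitutions against the hairpin were mostly at tag ends in tissue vesicles. In Exo-AT replicate 2, 247 of 1237 cluster counts (19.97%) carried one, 124 at the last base, 62 at the first and 61 inside; outside the cluster 22.9% of counts carried a mismatch or an indel. miR-379-5p had a last base of A in place of C (C22A) in 43 counts of that library, against 3 in the other tissue library.
miR-379-5p, changed last base: tggtagactatggaacgtaggA
Another change of this form, G2T, falls in the seed and had 2 and 19 counts in Exo-AT replicates 1 and 2. A-to-G changes, which is how adenosine-to-inosine editing is read, were in 3 and 27 cluster counts of Exo-AT and 0 of 105 in Exo-ADSCs, a count that allows up to 3.53% by the Wilson interval. As shares these were 3.26% and 2.18% against 0%, and outside the cluster A-to-G changes made up 2.32%, 2.84% and 0.370% of counts in the same libraries, in the same order. Of the cluster counts with such a change, 3 and 18 were the off-start tag of miR-539-3p and the other 9 sat at the first base of miR-127-3p and miR-154-5p tags. miR-376a-3p, whose relatives in other mammals are known for editing in the seed, was read unchanged in its 13 counts.

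The authors' deposited table lists 45 miRNAs that they chose as raised in Exo-AT, so its differences are a description. It is the one source with Exo-ADSCs replicate 1, and it holds 4 cluster members. In the authors' deposited table miR-379-5p stood at 1422 and 811 normalized reads in the columns headed exo-at1 and exo-at2 and at 89 and 9 in exo-adsc1 and exo-adsc2. miR-127-3p stood there at 1404 and 592 against 78 and 30. For miR-434-3p the authors' deposited table gave 746 and 499 against 27 and 4, and for miR-341 it gave 402 and 249 against 14 and 0. That 0 does not match the 7 tag counts of miR-341 in Exo-ADSCs replicate 2, and the reason was not tested. The authors' fold of miR-341 rests partly on this 0. From tag counts its pooled ratio was 4.65 (counting interval 2.16 to 11.9). In all 4 members both Exo-AT columns lay above both Exo-ADSCs columns, and exo-adsc1 lay above exo-adsc2. How many of the 45 entries, all chosen as raised, show this order was not counted, so it is not read as particular to the cluster. The folds of the authors' deposited table, group means each raised by 10 before division, were 24.8 for miR-434-3p, 19.7 for miR-341, 19.1 for miR-379-5p and 15.8 for miR-127-3p, with a median of 10.5 over the other entries.

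**Figure D5:**
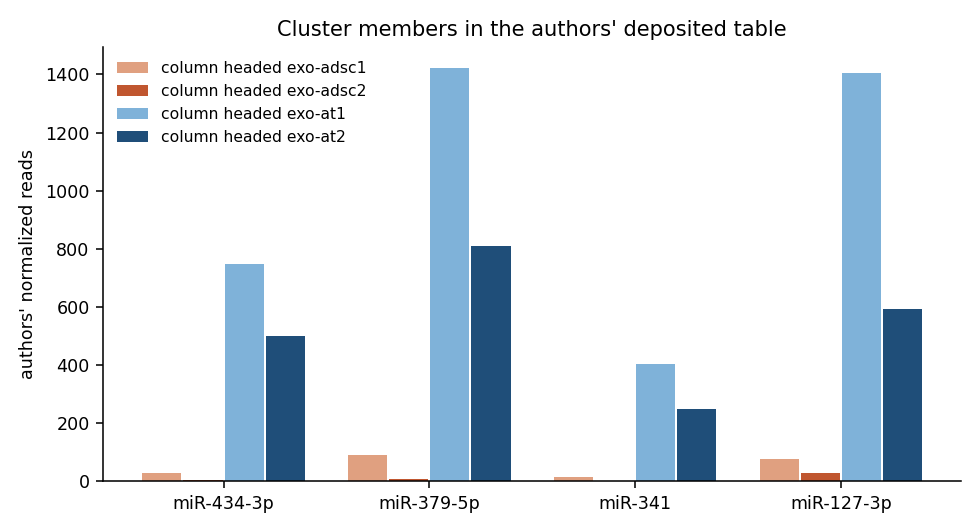
Normalized reads of the 4 cluster members in the authors' deposited table, 1 bar per library column as headed there. The Exo-AT bars run from 249 to 1422 and the Exo-ADSCs bars from 0 to 89.

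The Exo-AT headings of the authors' deposited table did not match the labels of the tag files. Values under exo-at1 were a constant multiple, within 5%, of the counts of Exo-AT replicate 2 in 42 of 45 miRNAs and of Exo-AT replicate 1 in 5. Values under exo-at2 followed the single most abundant tag of Exo-AT replicate 1 in 29 of 45 miRNAs. Values under exo-adsc2 followed Exo-ADSCs replicate 2 in 30 of 38 compared. Which of the labellings holds cannot be told from the files, and the group of either library does not depend on it. For miR-379-5p the value 811 stands for the 13 counts of 1 tag, whereas 1422 stands for all 261 counts, so the Exo-AT columns of the table were not counted alike.

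Other imprinted miRNAs and markers of other cells are given for comparison. Of 5 other imprinted miRNA genes (mir-296, mir-298, mir-335, mir-483 and mir-675), 2 had counts and 0 of the 2 tested forms, both of mir-335, passed the test. mir-335, hosted by Mest, had 9 and 58 counts in Exo-AT (985 and 426 CPM) and 15 in Exo-ADSCs (154.3 CPM), and mir-296 had 0 and 9 against 11. Among hairpins that RefSeq places between mir-770 and mir-410 but that are not members, 8 of 11 had no count and mir-6331, mir-3544 and mir-3576 had 7, 4 and 4 in Exo-ADSCs alone; this comparison was added after the data were seen. Summed levels of other lists moved too. The endothelial mir-126a was at 3832 and 5102 CPM in Exo-AT against 329.2 CPM. The neural list had counts for 6 of 6 hairpins, 5474 and 1426 CPM against 288 CPM. mir-138 and mir-219a were at 0 in both Exo-ADSCs replicate 2 and Exo-AT replicate 1. mir-9a, most of the sum in Exo-AT replicate 1, and mir-128 were higher in both Exo-AT libraries. mir-9a was at 4270 and 618 CPM against 61.7 CPM, and mir-128 at 876 and 625 CPM against 113 CPM. mir-124 was at 328 and 22.05 CPM against 72.0 CPM, and mir-129 had counts in Exo-ADSCs alone (41.15 CPM). The muscle list had counts for 4 of 6, 328 and 323.5 CPM against 237 CPM in sum, with no common direction. mir-499 was at 328 and 154.38 CPM against 0, and mir-133a at 0 and 154.38 CPM against 20.58 CPM. mir-206 (0 and 14.7 against 154.3 CPM) and mir-208a (0 and 0 against 61.7 CPM) were higher in Exo-ADSCs. Their levels there lie below the limit of 328 CPM behind a 0 in Exo-AT replicate 1. mir-1 and mir-133b were at 0 throughout, while mir-1b, added after the data were seen, was at 1971 and 1301 CPM against 30.9 CPM. Erythroid hairpins, 3 of 3, were at 51018 and 166978 CPM against 33527 CPM in sum, nearly all of it mir-486, while mir-451 was at 219 and 1397 CPM against 566 CPM and mir-144 at 0 and 14.7 CPM against 41.2 CPM. Leukocyte hairpins, 3 of 3, were at 438 and 941 CPM against 154.3 CPM, with mir-150 and mir-223 at 0 in Exo-ADSCs. The part of these cells in the cluster's level was not tested. Of the labelled sources, all 4 adipocyte markers had counts in each library (21458 and 19497 CPM against 7335 CPM in sum). In Exo-AT that sum was mostly mir-30a (17736 and 16424 CPM against 2078 CPM), while mir-378a (2409 and 2029 against 3621 CPM) and mir-103 (657 and 456 against 1605 CPM) were lower in both Exo-AT libraries. In Exo-ADSCs replicate 2 all 6 mesenchymal markers had counts, and the list showed no common direction (231662 and 157627 CPM against 190723 CPM in sum). Both Exo-AT libraries were higher for mir-199a (5912 and 4676 against 2860 CPM). They were lower for mir-214, mir-145 and mir-31a, while mir-143 and mir-21 were higher in replicate 1 and lower in replicate 2. mir-145 and mir-31a were at 0 in Exo-AT replicate 1. Their levels in Exo-AT replicate 2, 176 and 110 CPM, lie below the limit of 328 CPM behind that 0.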

How the data were processed

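Libraries of adaptor-ligated small RNA were sequenced on an Illumina HiSeq, per the labels' protocols. The deposited tag files give whole-number counts for each read sequence of at least 2 reads and 15 to 36 nt, with its hairpin, per the file headers. A tag on several hairpins was divided equally between them and rounded, which held for 100% of entries. Novoalign 2.07.11 and rn6 appear in the submitters' processing notes; how reads were trimmed and which miRNA release was used is not stated. Tag length, in nt, is a unit of its own (other). The deposited table gives values under the heading normalized reads, treated as a score because no factor is given, and the authors' fold, a ratio that equals that of the group means with 10 added to each. Intervals on shares are Wilson intervals. The file of Exo-ADSCs replicate 1 has no values per miRNA and was not used.

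Hairpin copies were summed, and arms were set by the tag's midpoint, with tag positions shifted by the 5 flanking bases included in the files' numbering. Forms passing edgeR's default filter (minimum count 10, total 15) were tested with edgeR 4.0.16 in R 4.3.3 (quasi-likelihood, two-sided, TMM factors 0.664, 1.39 and 1.08 for Exo-ADSCs replicate 2 and Exo-AT replicates 1 and 2), with Benjamini-Hochberg adjustment over all 183 forms and a threshold of 0.05. With 1 Exo-ADSCs library, the spread comes from the 2 Exo-AT libraries, with 1 residual degree of freedom per form, and the lone library is assumed to vary like them. edgeR pools this spread over all tested forms, so a p-value rests mostly on other forms. With DESeq2 size factors the p-values of miR-379-5p and miR-434-3p were far larger, at log2 fold changes of 4.89 and 3.82. Bounds and floors use 3 counts over the group, and counting intervals are exact (Clopper-Pearson, 95%). The bounds leave out counting error of the group with counts. Tags with fewer than 2 reads are not in the files, so a 0 can hide such tags. Members and lists were chosen with earlier results of these data known. Named are forms with at least 10 counts in a library, those called and those in the deposited table; tags printed or named beyond these were chosen after their values were seen.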

Additional observations from a re-analysis of the deposited data

How the results depend on the processing

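Tag counts of 1 Exo-ADSCs library and the shallow Exo-AT replicate 1 limit what can be called. No paired analysis was possible because tag counts of Exo-ADSCs exist here for replicate 2 only, so the groups share fewer than 2 replicate numbers. The number of cluster forms called higher was 5, beside 35 of 183 over all forms. It was 3 with DESeq2 1.42.0, beside 25 of 183, and 2 with limma 3.58.1 on log2(CPM + 1), beside 7 of 183. With predicted hairpins included it was 0, where edgeR called 0 of 401 features. Of these features, 25 had an unadjusted p under 0.05, and 0 of the 25 were cluster forms. The cause was not tested. In the other 8 alternatives 4 to 7 cluster forms were called higher, beside 23 to 46 over all 130 to 348 forms tested. The number of cluster forms called lower was 1, and 0 with DESeq2 size factors, total-count scaling, no filter, DESeq2, tags of 20 to 25 nt, tags near the most common start, arms summed, predicted hairpins, and mature starts only. Over all forms 35 of 183 were called lower in the main fit, and 16 to 38 in the alternatives other than predicted hairpins. Of 11 alternatives, miR-379-5p was called in 10, miR-382-5p and miR-434-3p in 9, miR-127-3p in 8 and miR-411-5p in 6, with the direction kept in all 11 for these 5 forms. Beside the setting with predicted hairpins, which lost all 5, limma lost miR-382-5p, miR-434-3p and miR-411-5p, DESeq2 lost miR-127-3p and miR-411-5p, tags of 20 to 25 nt lost miR-127-3p, and DESeq2 size factors and no filter lost miR-411-5p. The log2 fold change of miR-127-5p, not called, was -0.088 with DESeq2 size factors, -0.55 with DESeq2, -2.83 with limma and, without Exo-AT replicate 1 or 2, 0.64 and -4.63. That of miR-134-5p, not called, was -1.46 with limma and, without Exo-AT replicate 1 or 2, 2.08 and -3.40. Without Exo-AT replicate 1 or 2 no residual degree of freedom is left, so there is a value and no test; miR-379-5p stood at 5.21 and 5.09, and miR-299a-3p and miR-369-3p have no value without Exo-AT replicate 2. The cluster share with tags of 20 to 25 nt was 0.0599% in the Exo-ADSCs library and 0.858% in Exo-AT replicate 2. Over all assigned counts it was 0.0147%, 0.605% and 0.683% in that library and Exo-AT replicates 1 and 2. At mature starts it was 0.0527% in the Exo-ADSCs library and 1.16% in Exo-AT replicate 2.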
